A study of Homo sapiens with 9 samples.

Results

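The transcripts described here encode hydrolases and membrane proteins of the lysosome and the receptors that carry the hydrolases there. The group is a list of 36 human genes, given by name: LAMP1, LAMP2, SCARB2, CD63, MCOLN1, CTNS, CLN3, SLC17A5 and TMEM55A (current symbol PIP4P2) in the membrane, the peptidases TPP1 and LGMN, the glycosidases GLA, GLB1, GAA, HEXA, NEU1, MAN2B1, MANBA and FUCA1, the glycosaminoglycan and sulfate ester hydrolases ARSA, ARSB, GALNS, IDS, IDUA, SGSH, NAGLU and GUSB, the lipid hydrolases and activators PSAP, GM2A, ASAH1, SMPD1 and PPT1, and the sorting factors M6PR, IGF2R, SORT1 and NAGPA. Of these, 34 were measured by 89 probe sets that name a single gene, out of 19775 genes in all. GLB1 and SORT1 have no probe set of their own in the annotation used and carry no test here. HT1080 cells, an established human fibrosarcoma line, grew on thick gels of collagen (1.7 mg/ml), where they had adhered for 24 h in medium with 10% serum. Cells were left untreated (the titles name a vehicle, not further specified) or were exposed to a mix of protease inhibitors, for 4 h in one group and 24 h in another, and each group has 3 arrays. The mix held GM6001 (100 µM), which blocks matrix metalloproteinases, pepstatin A (50 µM) against aspartic proteases, E64 (250 µM) against cysteine proteases, and leupeptin and aprotinin (2 µM each) against serine and some cysteine proteases. The design text speaks of kinase inhibitors instead, and the compounds named here are those of the treatment protocol. The sources used here do not state when the untreated cells were collected, and a single line in culture is the only model.

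Lysosomes are acidic organelles in which acid hydrolases take apart proteins, glycans, lipids and glycosaminoglycans that arrive by endocytosis and autophagy. Most soluble hydrolases receive a mannose 6-phosphate tag in the Golgi and are carried onward by the receptors encoded by M6PR and IGF2R, while heavily glycosylated membrane proteins such as LAMP1 and LAMP2 line the organelle. Many of these genes share a palindromic promoter element with the core letters CACGTG, to which TFEB and related factors bind, and inherited loss of single members causes lysosomal storage diseases.

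The core element was looked for in the members' promoters, as a description of the list. It is known from lysosomal genes, as given above, so its share here is not independent of the choice of such genes. RefSeq promoter windows on GRCh38.p14, of 250 bases before and 50 after each start, were listed for 26 of the 36 members (39 windows). The letters CACGTG, a palindrome that reads alike on both strands, stood in at least 1 window of 11 of the 26 genes (42.3%), beside 8.77% of all 27305 genes with windows and 10.9% of the protein-coding ones. The longer palindrome TCACGTGA, which contains CACGTG, stood in 7 of 26 (26.9%), beside 1.18% of all genes and 1.65% of protein-coding ones. By window, the shares were 30.8% against 7.26% for CACGTG and 20.5% against 0.98% for TCACGTGA. The 11 genes were ARSB, CD63, CLN3, GAA, GALNS, IGF2R, LAMP1, M6PR, MCOLN1, NAGPA and NEU1. Windows of 60 bases around the element are printed for 5 of them, read 5′ to 3′ along the gene's strand, with the element in capitals. They were picked to show both forms of the element in members whose transcript measured higher at 24 h (NEU1, CD63), lower at 24 h (NAGPA), nearly level (MCOLN1) or different between probe sets (LAMP1). The NEU1 window is chr6:31862915-31862974 on the minus strand, CD63 is chr12:55729157-55729216 on the minus strand, and NAGPA is chr16:5033936-5033995 on the minus strand. The LAMP1 window is chr13:113297179-113297238 on the plus strand and MCOLN1 is chr19:7522556-7522615 on the plus strand. CD63 had 8 listed promoter windows, not all of them with the element, whereas NEU1, NAGPA, LAMP1 and MCOLN1 had 1 each.
NEU1: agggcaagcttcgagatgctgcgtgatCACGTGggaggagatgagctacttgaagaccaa
CD63: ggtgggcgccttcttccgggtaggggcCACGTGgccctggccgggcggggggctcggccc
NAGPA: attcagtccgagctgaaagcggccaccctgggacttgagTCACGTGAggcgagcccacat
LAMP1: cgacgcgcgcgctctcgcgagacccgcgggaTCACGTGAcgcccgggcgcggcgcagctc
MCOLN1: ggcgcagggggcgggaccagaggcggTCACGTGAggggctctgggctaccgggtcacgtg
In NEU1 and CD63 the core stood without the complete longer palindrome, whereas NAGPA, LAMP1 and MCOLN1 held the longer form. The last letters of the MCOLN1 window, in lower case, belong to a second match closer to its start. The LAMP1 promoter held 4 further cores upstream of the one printed. A match is only a match of letters, and no binding was measured in these cells.

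Members with and without the element were also set side by side in the array data. At 24 h against untreated the median log2 change was 0.03 for the 11 members with CACGTG, all of them measured, and -0.18 for the 13 measured members whose windows lacked it. The 0.03 is the value of LAMP1 on its brightest probe set, and with the mean over each gene's probe sets the medians were -0.14 and -0.10, in the opposite order. At 4 h the medians were -0.16 and -0.20, and for 24 h against 4 h they were 0.10 and 0.05. Averaging each gene's probe sets reversed both of these orders as well. The 4 h medians became -0.057 for members with the element and -0.0046 for those without it. For 24 h against 4 h the values became 0.042 and 0.052. The medians over all genes with and without the element lay between -0.01 and 0.02 in each comparison. The difference between members with and without the element was not tested.

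The arrays carry some technical differences that follow the treatment. Values are deposited linear intensities with a trimmed mean of 100 on every array, so a change in total messenger RNA cannot be seen, and in such bulk samples fewer cells with a transcript and less transcript per cell cannot be told apart. The poly-A spikes, RNAs added during preparation, had a mean log2 intensity of 9.31 ± 0.07 (SD, n = 3, as throughout) in untreated cells, against 10.20 ± 0.22 in the 4 h group and 10.64 ± 0.02 in the 24 h group, with no overlap between groups (exact two-sided permutation p = 0.1, the smallest that 3 against 3 arrays allow). The ratio of the 5′ to the 3′ ACTB probe set, a sign of RNA integrity, was 0.893 ± 0.034, 0.723 ± 0.132 and 0.697 ± 0.038 in that order. The same ratio for GAPDH lay the other way, at 1.049 ± 0.00077, 1.074 ± 0.029 and 1.079 ± 0.018. The part of these differences in the results was not tested. On the first principal component of all genes, 4 h replicate 2 (-13.4) lay nearer to the untreated arrays (-23.3 to -18.2) than to the other two 4 h arrays (8.63 and 15.5) or the 24 h arrays (15.7 to 19.7). Of 7 mesenchymal markers fixed for the line, 6 including VIM had a mean over the 9 arrays above 16, the offset used for the log scale. NT5E lay below it in every group (5.3, 6.8 and 5.0) and THY1 at 24 h (24.8, 26.2 and 10.5). All 6 epithelial markers, 5 of 6 leukocyte and macrophage markers and 4 of 5 endothelial markers had a mean below 16. CSF1R (60.9, 38.7 and 52.3) was the leukocyte and macrophage marker with a mean above it. The summed endothelial markers ranged from 32.2 to 47.8 in untreated cells, from 55.2 to 88.4 in the 4 h group and from 70.1 to 116.6 in the 24 h group, with PECAM1 the one above the offset, and none of these markers was at 0 on all arrays. Where labels say only that replicates are biological, the p-values measure the spread between these arrays.

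After 4 h of inhibition most members measured somewhat lower than in untreated cells, and no single member passed the adjusted threshold. Of 34 members, 27 lay below 0 and 7 above, with a median log2 change of -0.18, while the median over all genes was 0.01 and 52.2% of all genes lay above 0. Changes are differences of log2(intensity + 16), printed ± SE, and were tested with limma, adjusted over all 19775 genes at 0.05. Over all genes 0.233% were called higher and 0.0152% lower, and 0 of 34 members were called in either direction. At an unadjusted p under 0.05, 0 members were higher and 5 lower (14.7%), namely IDS, TMEM55A, SMPD1, NAGLU and GM2A, beside 6.93% higher and 5.43% lower over all genes. The arrays of both groups did not overlap in 0 members on the higher side and 8 on the lower side, beside 9.37% and 8.14% of all genes. The count of 5 lower became 3 without untreated replicate 2 or without untreated replicate 3, 8 without 4 h replicate 2 and 9 without 4 h replicate 3. With each array centred on its median, 0 members were higher and 11 lower, beside 808 and 1714 of all genes, where the main scaling gave 1371 and 1073. With the mean over each gene's probe sets, the members' median was -0.07, with 0 higher and 6 lower.

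After 24 h the members lay on both sides of untreated cells: the peptidases, several membrane proteins, GLA, NEU1 and PPT1 measured higher, and the glycosaminoglycan hydrolases lower. The counts were 14 members above 0 and 20 below, with a median of -0.15 beside 0.01 over all genes. Called shares over all genes were 0.217% higher and 0.248% lower, and again 0 of 34 members were called. At an unadjusted p under 0.05, 5 members were higher (14.7%: GLA, LGMN, PPT1, NEU1 and CD63) and 7 lower (20.6%: NAGLU, SMPD1, NAGPA, ARSB, IDS, SCARB2 and SGSH), beside 8.17% and 7.62% of all genes. The arrays of both groups did not overlap in 11 members on the higher side and 10 on the lower, beside 12.8% and 12.2% of all genes. Of all genes, 40.6% had a mean below the offset, while every measured member lay above it. Over the 11865 genes above the 40th percentile of level, 10.9% were higher and 10.7% lower at the same p, and 17.7% and 17.3% did not overlap. The count of 7 lower became 4 without untreated replicate 2, 3 without untreated replicate 3 and 4 without 24 h replicate 2. Centring on array medians gave 4 higher and 9 lower members, beside 1030 and 2005 of all genes.

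At 24 h most members measured higher than at 4 h, again with none past the adjusted threshold. Here 26 lay above 0 and 8 below, with a median of 0.12 beside -0.004 over all genes, of which 49.2% lay above 0. Called shares over all genes were 0.0253% higher and 0.116% lower, against 0 of 34 members. At an unadjusted p under 0.05, 10 members were higher (29.4%: NEU1, TPP1, SLC17A5, GLA, LGMN, PPT1, CD63, CLN3, LAMP2 and CTNS) and 0 lower, beside 5.2% and 6.12% of all genes. Groups without overlap numbered 10 on the higher side and 1 on the lower, beside 7.35% and 7.85%. The count of 10 became 5 without 24 h replicate 1 and 6 without 24 h replicate 2, and was 8 without 4 h replicate 2, the array that stood apart. With the mean over each gene's probe sets, the members' median was 0.05, with 6 higher and 3 lower. All 3 comparisons share arrays, so a low 4 h value enters the first and the last with opposite sign, and their values are given side by side only.

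**Figure D1:**
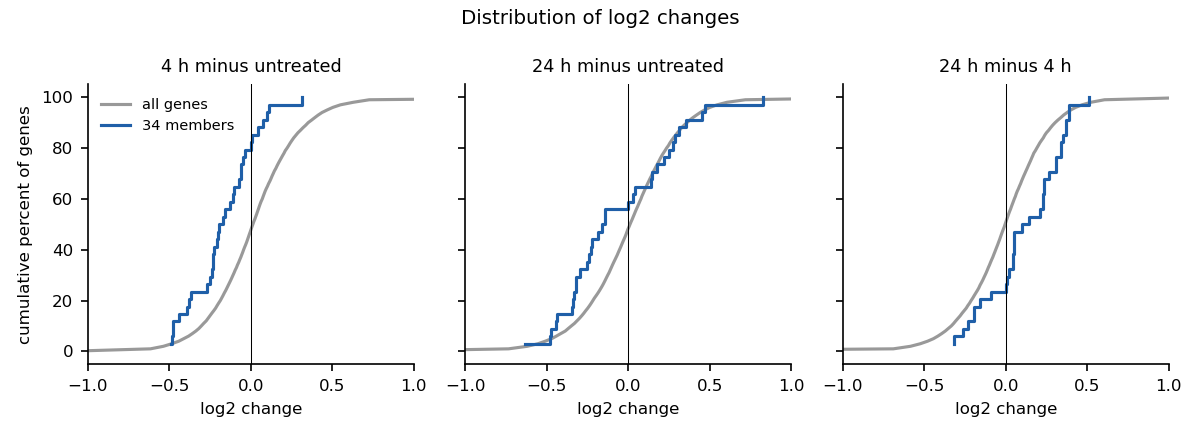
Distribution of log2 change, on the scale of log2(intensity + 16), for all 19775 genes and the 34 measured members in the comparisons of 4 h with untreated, 24 h with untreated and 24 h with 4 h. The members' medians of -0.18, -0.15 and 0.12 stand beside all-gene medians near 0.

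Membrane proteins and transporters mostly measured higher at 24 h than at 4 h, and differed less from untreated cells. Of 9 members, 7 lay above 0 at 24 h against untreated (median 0.14). At an unadjusted p under 0.05, 1 was higher and 1 lower (11.1% each), beside 8.17% and 7.62% of all genes. Against 4 h, 8 lay above 0 (median 0.31), with 5 higher (55.6%) and 0 lower at that p, beside 5.2% and 6.12% of all genes. That count of 5 became 1 without 24 h replicate 1 or without 24 h replicate 2, 2 without 4 h replicate 1, 2 with the compared groups only and 2 with the mean over probe sets (median 0.17). At 4 h against untreated, 7 of the 9 lay below 0 (median -0.17), but 4 of 9 with the mean over probe sets (median 0.00046). The count of 7 above 0 at 24 h against untreated was 6 with quantile normalization and 5 with median centring. With the mean over each gene's probe sets it was 5, with a median of 0.04. CD63 encodes a tetraspanin of late endosomes and lysosomes. Its intensity was 5748, 5638 and 5262 on the untreated arrays, 5482, 5023 and 6260.5 at 4 h and 7303, 6742 and 6664 at 24 h. All 24 h arrays lay above all others, with a log2 change of 0.31 ± 0.12 (SE) against untreated (adjusted p = 0.245) and 0.31 ± 0.12 against 4 h (adjusted p = 0.382).

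LAMP2 encodes a major glycoprotein of the lysosomal membrane that takes part in autophagy. Its arrays read 287, 260.2 and 277 on the untreated arrays, 233, 276 and 282 at 4 h and 328, 364 and 299 at 24 h. The 24 h arrays did not overlap with either other group, and the change was 0.25 ± 0.13 against untreated (adjusted p = 0.377) and 0.31 ± 0.13 against 4 h (adjusted p = 0.399). SLC17A5 encodes sialin, which exports sialic acid from lysosomes. It measured 215, 221 and 223 on the untreated arrays, 213, 182 and 177 at 4 h and 251, 254 and 245 at 24 h. Its 24 h arrays stood above both other groups, by 0.37 ± 0.11 against 4 h (adjusted p = 0.245) and 0.18 ± 0.11 against untreated (adjusted p = 0.491).

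CLN3, the gene of a lysosomal membrane protein lost in juvenile neuronal ceroid lipofuscinosis, measured 299, 399 and 389 on the untreated arrays, 363, 331 and 267 at 4 h and 420.0, 429 and 414 at 24 h. Every 24 h array exceeded the others, although 1 untreated array was low, and the change against 4 h was 0.39 ± 0.15 (adjusted p = 0.382). Its second probe set, 209275_s_at, gave -0.041 against 4 h, and the mean over both was 0.17. CTNS encodes cystinosin, the cystine exporter. Its arrays gave 289, 367 and 329.7 on the untreated arrays, 274, 333 and 248 at 4 h and 345, 380.4 and 359.8 at 24 h. Untreated and 24 h arrays overlapped, and 24 h stood above 4 h by 0.34 ± 0.14 (adjusted p = 0.418).

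SCARB2 and TMEM55A measured lower at 24 h than in untreated cells. SCARB2 encodes LIMP-2, the receptor that brings glucocerebrosidase to lysosomes. It read 482, 436 and 446 on the untreated arrays, 373, 445 and 497 at 4 h and 374, 344 and 364 at 24 h. The 24 h arrays were all below the untreated ones (-0.32 ± 0.13, adjusted p = 0.264), and the 4 h arrays ran from the 24 h range to above the untreated range. TMEM55A encodes a phosphoinositide phosphatase of late endosomal and lysosomal membranes. Its values were 104, 104 and 131 on the untreated arrays, 67.3, 73.1 and 89.8 at 4 h and 86.9, 97.2 and 93.9 at 24 h. Both treated groups lay below all untreated arrays with a log2 change of -0.48 ± 0.14 at 4 h (adjusted p = 0.21) and -0.24 ± 0.14 at 24 h (adjusted p = 0.432). MCOLN1, the lysosomal calcium channel, was nearly level at 157 ± 13 untreated, 158 ± 24.1 at 4 h and 162 ± 11.9 at 24 h. LAMP1 measured 3000.4 ± 197 untreated, 2551 ± 261 at 4 h and 3065 ± 280.2 at 24 h on its brightest probe set, with a 24 h change of 0.029 ± 0.13 (adjusted p = 0.943), and its other probe sets differed from this one, as given further on.

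**Figure D2:**
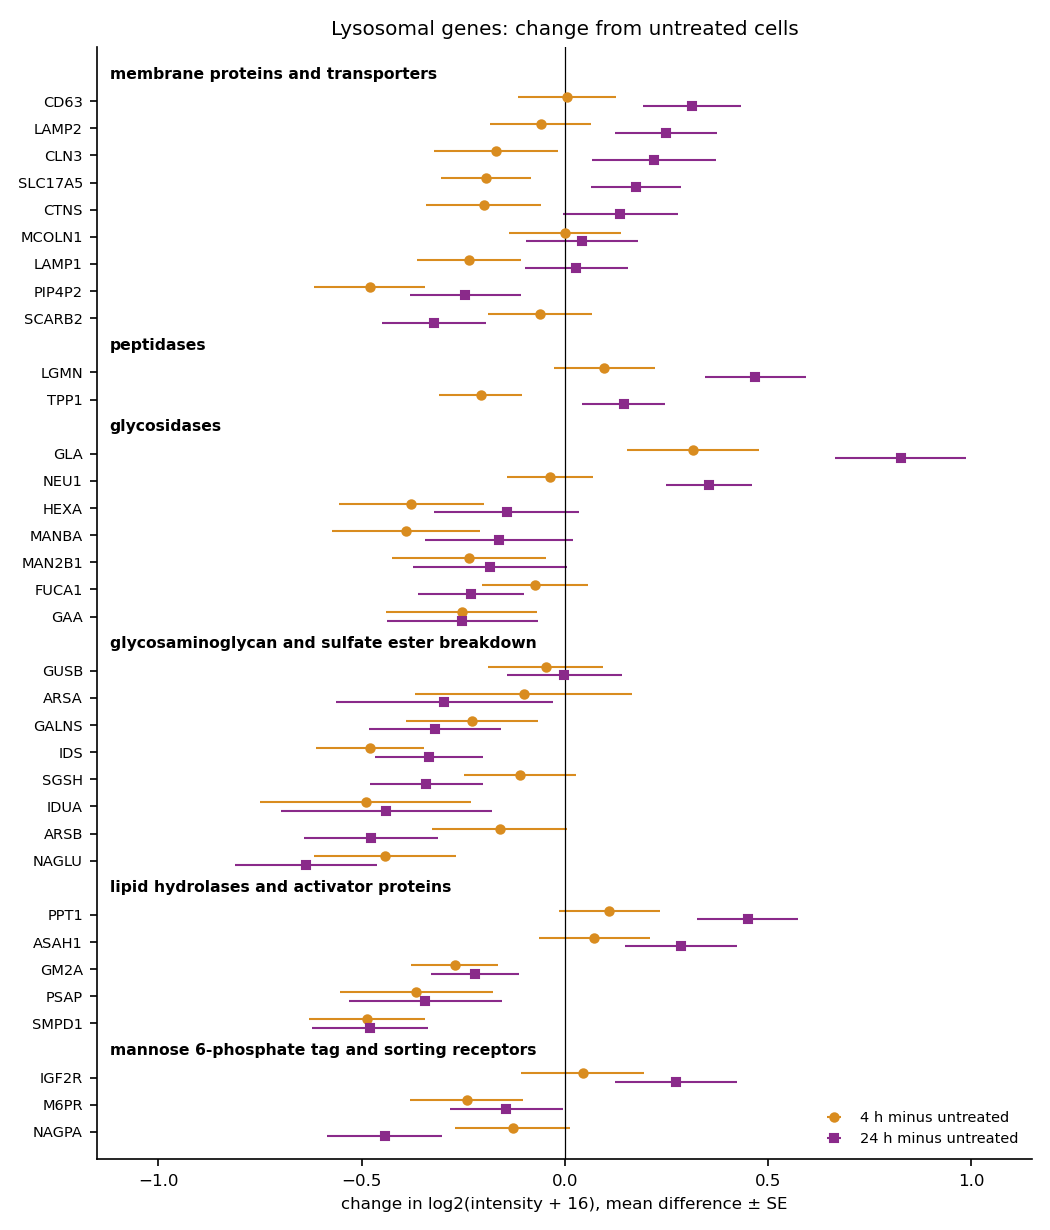
Log2 change with its standard error for each of the 34 measured members, ordered by role, at 4 h and 24 h against untreated. GLA reaches 0.83 at 24 h and NAGLU -0.64, while the 8 glycosaminoglycan and sulfate ester hydrolases lie below 0 at both times, GUSB only just at 24 h (PIP4P2 is the current symbol of TMEM55A).

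Both peptidases measured higher at 24 h than at 4 h. LGMN encodes legumain, an asparaginyl endopeptidase that E64 does not target. Its arrays read 82.5, 91.7 and 99.6 on the untreated arrays, 94.8, 97.8 and 103 at 4 h and 152, 127 and 119 at 24 h. All 3 arrays at 24 h lay above the rest, by 0.47 ± 0.12 against untreated (adjusted p = 0.117) and 0.37 ± 0.12 against 4 h (adjusted p = 0.302). TPP1 encodes tripeptidyl peptidase, a serine protease that removes tripeptides from the amino terminus. It measured 387, 366 and 371 on the untreated arrays, 312, 320.2 and 334 at 4 h and 431, 403 and 413 at 24 h. On this probe set, the brightest of 4, the groups were fully separated, with 4 h lowest and 24 h highest. The changes were -0.21 ± 0.10 at 4 h against untreated (adjusted p = 0.458), 0.15 ± 0.10 at 24 h (adjusted p = 0.549) and 0.35 ± 0.10 between the treated groups (adjusted p = 0.237). The second probe set, 200742_s_at, gave 0.011 at 24 h against untreated. The dimmest, 214195_at, went the other way at 4 h (0.53). With the mean over its probe sets, the 4 h change was -0.0046 and that between the treated groups 0.17.

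Among the 7 measured glycosidases, GLA and NEU1 lay above untreated cells at 24 h and the other 5 below. GLA encodes alpha-galactosidase A, which removes terminal galactose from globotriaosylceramide and is deficient in Fabry disease. Its intensity was 655, 657 and 622 on the untreated arrays, 835, 631 and 994 at 4 h and 1229.8, 1064 and 1179.6 at 24 h. The 24 h arrays lay above all others and the 4 h arrays were scattered, with replicate 2 among the untreated values. The 24 h change of 0.83 ± 0.16, 1.77-fold on this scale, had the smallest adjusted p of any member in the 3 comparisons (adjusted p = 0.0596). It passed under 4 of 10 other settings, with adjusted p from 0.00504 to 0.139, and in 2 of 9 fits that left out 1 array, without 4 h replicate 2 or without 4 h replicate 3, with adjusted p from 0.0295 to 0.203. At 4 h the change was 0.32 ± 0.16 (adjusted p = 0.475).

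NEU1 encodes the lysosomal sialidase, which works in a complex with cathepsin A and beta-galactosidase. Its arrays read 381, 416 and 380.3 on the untreated arrays, 375, 403 and 369 at 4 h and 507, 512 and 498 at 24 h. The 24 h values were tightly grouped above both others, by 0.35 ± 0.11 against untreated (1.28-fold, adjusted p = 0.144) and 0.39 ± 0.11 against 4 h (adjusted p = 0.197). Its promoter window is the first of those printed. The remaining glycosidases all lay below 0 at 24 h, none at an unadjusted p under 0.05. GAA, the acid alpha-glucosidase of glycogen breakdown, averaged 46.8 ± 7.44 untreated, 37.3 ± 12.2 at 4 h and 36.9 ± 7.96 at 24 h. HEXA, the alpha subunit of beta-hexosaminidase, averaged 458 ± 7.73 untreated, 352 ± 61.7 at 4 h and 419.6 ± 95.9 at 24 h. MAN2B1, the alpha-mannosidase, averaged 103 ± 9.35 untreated, 87 ± 25.8 at 4 h and 89.4 ± 15.9 at 24 h. MANBA, the beta-mannosidase, averaged 100.3 ± 22.1 untreated, 73 ± 18.1 at 4 h and 86.9 ± 7.52 at 24 h. FUCA1, the alpha-fucosidase, averaged 159 ± 20.6 untreated, 149.6 ± 9.82 at 4 h and 133 ± 13.4 at 24 h.

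The enzymes that degrade glycosaminoglycans or remove sulfate esters measured lower in treated cells. On their brightest probe sets, all 8 lay below 0 at 4 h (median -0.19) and at 24 h (median -0.34), GUSB only just. At an unadjusted p under 0.05, 2 were lower at 4 h (25%) and 4 at 24 h (50%), beside 5.43% and 7.62% of all genes. With the mean over probe sets, 7 lay below 0 at both times. The medians were then -0.10 at 4 h and -0.22 at 24 h, with 0 and 2 lower at that p. Leaving out 1 array gave 7 to 8 below 0 and 1 to 3 lower at that p at 4 h, and 6 to 8 and 1 to 5 at 24 h. The count below 0 at 24 h was 7 with quantile normalization and 8 with median centring. NAGLU encodes alpha-N-acetylglucosaminidase, a step of heparan sulfate breakdown. It measured 128, 158 and 137 on the untreated arrays, 82.2, 122 and 96.9 at 4 h and 80.7, 107 and 69.8 at 24 h. Both treated groups lay below every untreated array with a log2 change of -0.44 ± 0.17 at 4 h (adjusted p = 0.35) and -0.64 ± 0.17 at 24 h (adjusted p = 0.125).

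IDS encodes iduronate 2-sulfatase, deficient in Hunter syndrome, and acts on heparan and dermatan sulfate. Its arrays were 399, 385 and 411 on the untreated arrays, 236, 302 and 311 at 4 h and 303, 294 and 342 at 24 h. Again no treated array reached the untreated ones, with -0.48 ± 0.13 at 4 h (adjusted p = 0.2) and -0.33 ± 0.13 at 24 h (adjusted p = 0.258). SGSH, the heparan N-sulfatase, gave 112, 138 and 126 on the untreated arrays, 112, 136 and 97.7 at 4 h and 90.3, 94.7 and 101 at 24 h on its brighter probe set. The 4 h arrays overlapped with the untreated ones and the 24 h arrays lay below them with a log2 change of -0.34 ± 0.14 (adjusted p = 0.269). ARSB encodes arylsulfatase B, which acts on dermatan and chondroitin sulfate. Its values were near the offset: 26.3, 31.4 and 33.5 on the untreated arrays, 25.9, 27.4 and 23.1 at 4 h and 27.1, 12.2 and 14.3 at 24 h. Of the 24 h arrays, 1 lay among the untreated values, and the change was -0.48 ± 0.17 (adjusted p = 0.201).

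The other members of this role did not reach an unadjusted p under 0.05 in any comparison. IDUA, alpha-L-iduronidase, averaged 43.1 ± 4.89 untreated, 28.3 ± 16.5 at 4 h and 27.7 ± 5.67 at 24 h. GALNS, which removes sulfate from keratan sulfate, averaged 60.3 ± 3.51 untreated, 49.8 ± 11.5 at 4 h and 45.7 ± 9.91 at 24 h. ARSA, the arylsulfatase that acts on sulfatide, averaged 25.1 ± 6.45 untreated, 22.2 ± 4.56 at 4 h and 19 ± 12.7 at 24 h, close to the offset. GUSB, beta-glucuronidase, averaged 304 ± 26.1 untreated, 296 ± 48.5 at 4 h and 304 ± 17.2 at 24 h and differed from untreated by less than its replicate spread at 24 h.

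Lipid hydrolases and their activators split by member. SMPD1 encodes acid sphingomyelinase, deficient in Niemann-Pick disease types A and B. It read 187, 183 and 169.5 on the untreated arrays, 108, 136 and 128 at 4 h and 128, 103 and 146 at 24 h. No treated array reached the untreated range, with -0.49 ± 0.14 at 4 h (adjusted p = 0.218) and -0.48 ± 0.14 at 24 h (adjusted p = 0.147). GM2A encodes the activator that presents GM2 ganglioside to beta-hexosaminidase. Its brightest probe set gave 301, 307 and 304 on the untreated arrays, 237, 259 and 251 at 4 h and 245, 282 and 249 at 24 h. Untreated arrays were tightly grouped above both treated groups, which lay lower with a log2 change of -0.27 ± 0.11 at 4 h (adjusted p = 0.354) and -0.22 ± 0.11 at 24 h (adjusted p = 0.36).

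PPT1 encodes palmitoyl-protein thioesterase, which removes fatty acids from proteins under degradation. Its arrays were 1774, 1696 and 1853 on the untreated arrays, 2098, 1639.9 and 2038 at 4 h and 2433, 2406 and 2449 at 24 h. The 24 h arrays were close together and above the rest, by 0.45 ± 0.12 against untreated (adjusted p = 0.126) and 0.34 ± 0.12 against 4 h (adjusted p = 0.343). ASAH1, acid ceramidase, averaged 418 ± 15.3 untreated, 443 ± 68.5 at 4 h and 514 ± 44.5 at 24 h, with a 24 h change of 0.29 ± 0.14 (adjusted p = 0.354), or 0.12 with the mean over its probe sets. PSAP, the precursor of the saposins, averaged 1351 ± 110.2 untreated, 1066 ± 264 at 4 h and 1065 ± 139 at 24 h, with -0.34 ± 0.19 at 24 h (adjusted p = 0.422).

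The tagging and sorting factors lay on both sides of untreated cells. NAGPA encodes the uncovering enzyme, which exposes the mannose 6-phosphate tag in the Golgi. It measured 129, 129 and 124 on the untreated arrays, 111, 139 and 98.7 at 4 h and 96.8, 77.5 and 95.1 at 24 h. All 24 h arrays lay below the others with a log2 change of -0.44 ± 0.14 against untreated (adjusted p = 0.167) and -0.32 ± 0.14 against 4 h (adjusted p = 0.443). IGF2R, the large mannose 6-phosphate receptor, averaged 241 ± 14.8 untreated, 251 ± 45.6 at 4 h and 295 ± 31.3 at 24 h and lay higher at 24 h by 0.27 ± 0.15 (adjusted p = 0.422). M6PR, the small one, averaged 1056 ± 95.8 untreated, 894 ± 126 at 4 h and 954 ± 85 at 24 h, with -0.14 ± 0.14 at 24 h (adjusted p = 0.684).

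**Figure D3:**
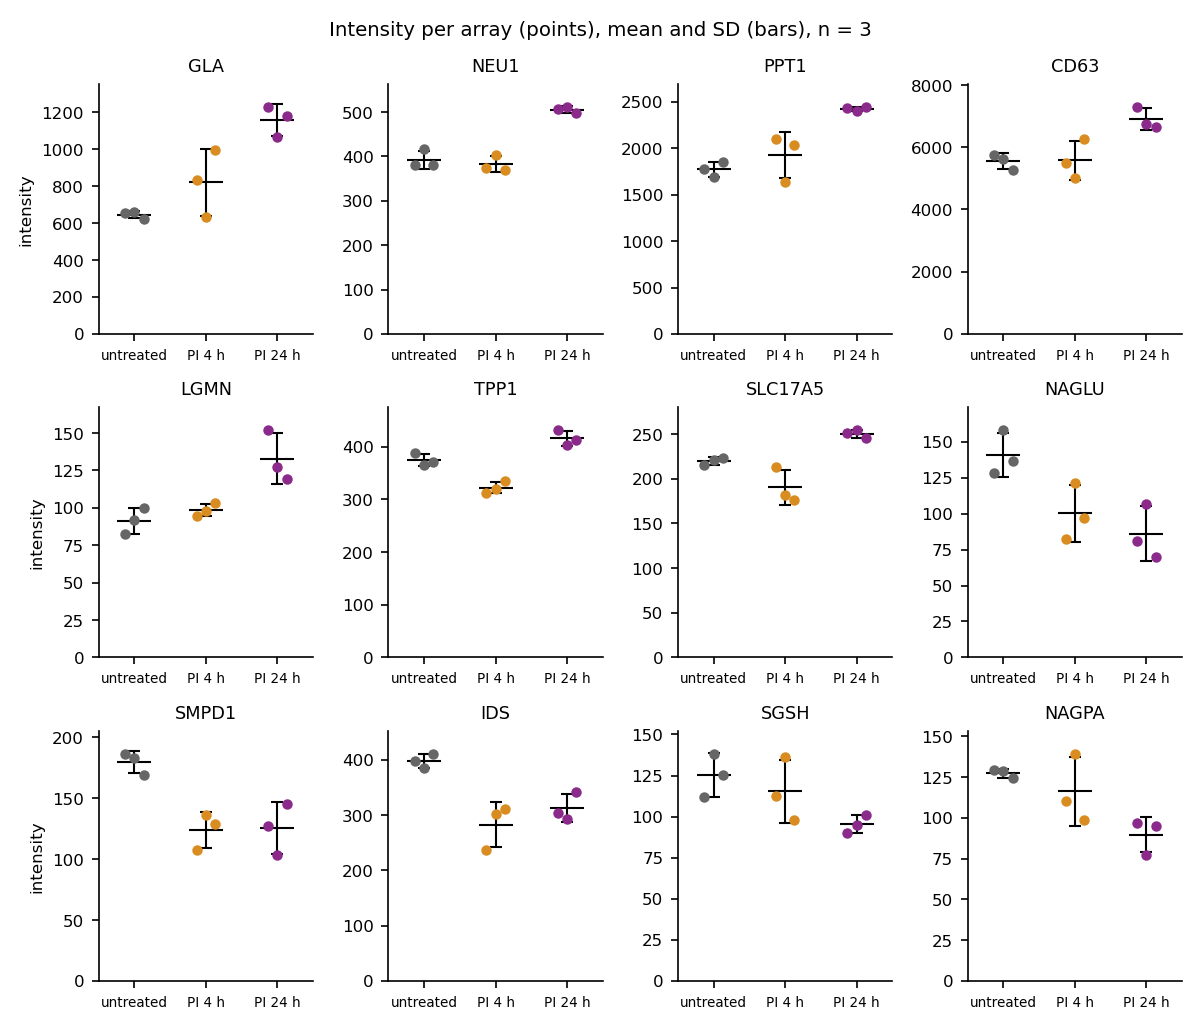
Intensity on each of the 9 arrays, on a linear axis from 0, for 12 of the members with an unadjusted p under 0.05 in at least 1 comparison, with points for arrays and bars for the group mean and SD. GLA, NEU1, PPT1 and LGMN have all 24 h arrays above the others, and IDS, NAGLU and SMPD1 have all treated arrays below the untreated ones.

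For 22 of the 34 members several probe sets could be set against each other, and 12 had 1. In a fit over all 54613 probe sets, 0.0128% were called higher and 0% lower at 4 h against untreated, 0.0165% and 0.0366% at 24 h against untreated, and 0.00549% and 0.0201% at 24 h against 4 h. Of the 89 probe sets of members, 0 were called at 4 h, 1 was called lower at 24 h against untreated and the same one was called lower against 4 h. That probe set, 204293_at of SGSH, read 23.2, 31.7 and 27.2 on the untreated arrays, 24.6, 27.7 and 24.7 at 4 h and 5.7, 1.8 and 1.6 at 24 h. On the log2 scale it fell by 1.19 against untreated (adjusted p = 0.0341) and by 1.14 against 4 h (adjusted p = 0.0384). The signal lay near the offset in untreated cells and below it at 24 h. The first call held in 1 of 9 fits without an array (without 4 h replicate 2, adjusted p from 0.0304 to 0.194 over the 9) and the second in 0 of 9 (0.0875 to 0.198), and with an offset of 1 neither passed (0.1 and 0.126). At an unadjusted p under 0.05, 3 member probe sets were higher and 17 lower at 4 h, 8 and 18 at 24 h, and 15 and 3 between the treated groups.

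The probe sets of LAMP1 disagreed at 24 h, where 3 of its 4 had the opposite sign to the brightest one. Probe set 201552_at read 916, 1009 and 1030.5 on the untreated arrays, 468, 707 and 489 at 4 h and 514, 567 and 543 at 24 h. Both treated groups lay well below the untreated arrays there with a log2 change of -0.83 at 4 h (adjusted p = 0.112) and -0.84 at 24 h (adjusted p = 0.0788), while the brightest probe set differed little. With the mean over its probe sets, the LAMP1 change at 24 h was -0.46 (adjusted p = 0.17). SLC17A5 had a second probe set, 221041_s_at, that read 107, 93.9 and 82 on the untreated arrays, 111, 116 and 119 at 4 h and 191, 199.5 and 159 at 24 h. It pointed the same way as the first at 24 h and more steeply, by 0.85 (adjusted p = 0.0635). At 4 h the SLC17A5 probe sets went opposite ways, by -0.19 on the first and 0.26 on the second.

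Opposite signs at 24 h were also found in 2 of 4 probe sets of LAMP2, 2 of 4 of SCARB2, 2 of 5 of ASAH1, 2 of 10 of IDS, 1 of 3 of CTNS and 1 of 2 of GUSB, all with a mean above the offset, so the values given above for these members hold for their brightest probe set. With the mean over probe sets, the 24 h change was -0.058 for LAMP2 and -0.10 for SCARB2. Opposite signs above the offset at 4 h were found in 2 of 5 probe sets of ASAH1, and in 1 of 2 each of CLN3, GUSB and SLC17A5. The same held at 4 h for 1 of 4 each of HEXA and SCARB2, 1 of 7 of GM2A and 1 of 10 of IDS. For 24 h against 4 h, such probe sets were 3 of 4 each of LAMP1 and SCARB2 and 3 of 7 of GM2A. They were also 2 of 5 of ASAH1 and 2 of 10 of IDS. The rest were 1 of 4 each of HEXA and LAMP2 and 1 of 2 of CLN3. GLA, NEU1, PPT1, LGMN, CD63 and NAGPA had 1 probe set each and offer no such comparison. GM2A and IDS had several dimmer probe sets, and 1 of each that differed from the brightest in size or direction is given here. The GM2A one went the same way as the brightest and more steeply, and the IDS one went the opposite way at 4 h. The next brightest IDS probe sets, 206342_x_at and 202439_s_at, went the same way as the brightest at 4 h (-0.45 and -0.36). GM2A probe set 209727_at read 40.1, 55.5 and 70.5 on the untreated arrays, 3.3, 21.2 and 1.6 at 4 h and 21.2, 20.8 and 20.8 at 24 h. All treated arrays lay below the untreated ones, 2 of the 4 h arrays well under the offset, and the 4 h change was -1.59 (adjusted p = 0.0887). IDS probe set 210666_at read 20, 20.7 and 19.7 on the untreated arrays, 52.6, 37.7 and 51.6 at 4 h and 19.5, 6.7 and 16.6 at 24 h. It was higher at 4 h (0.80, adjusted p = 0.15), opposite to the brightest IDS probe set, and lower at 24 h than at 4 h (-1.08, adjusted p = 0.12). Which transcripts each probe set detects was not tested.

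**Figure D4:**
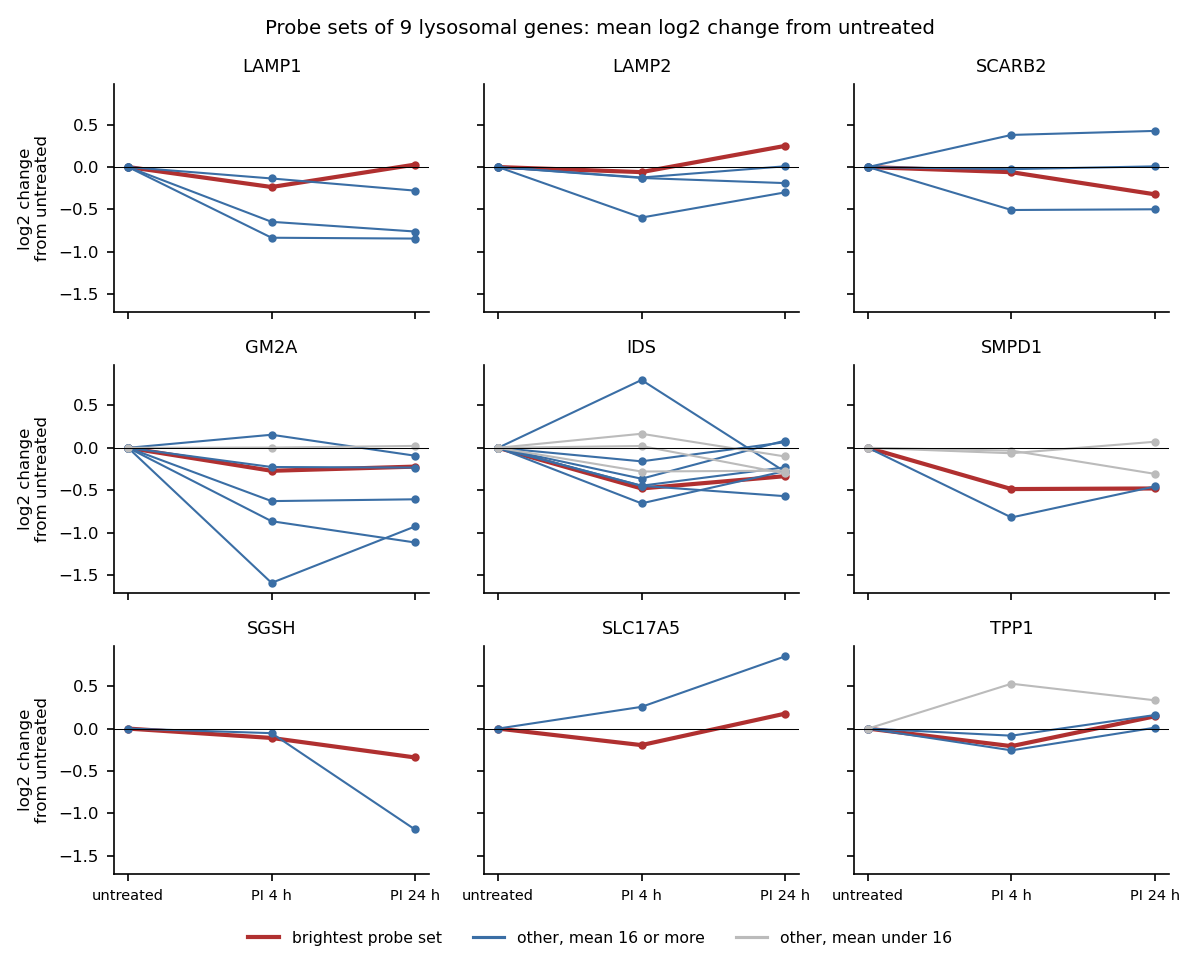
Mean log2 change from untreated at 4 h and 24 h for each probe set of 9 members that have several, with the brightest probe set in red, the others in blue, and those with a mean under 16 in grey. At 24 h the 4 LAMP1 probe sets span both sides of 0, and the dim SGSH probe set lies at -1.19.

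Other genes of the lysosomal pathway were counted from 5 further lists with 108 measured genes, of which 0 passed the adjusted threshold in any comparison. At 24 h against untreated, 8 of the 108 passed with the mean-variance trend, 7 with an offset of 64, 4 of the 100 left by the filter, 2 with the compared groups only and 1 with quantile normalization. The V-ATPase, the proton pump that acidifies the organelle, had 14 of 16 measured subunits above 0 at 24 h against untreated, with a median of 0.25. At an unadjusted p under 0.05, 7 were higher (43.8%) and 1 lower (6.25%), beside 8.17% and 7.62% of all genes. Among genes above the 40th percentile of level, these shares were 10.9% and 10.7%. With 1 array left out the number higher ranged from 4 to 8, and with median centring it was 4. With the mean over probe sets it was 5, and the median was 0.13. At 4 h, 0 subunits reached that p in either direction. ATP6V0E1, of the membrane sector, averaged 2952 ± 138 untreated, 3108 ± 387 at 4 h and 4136 ± 147 at 24 h, with an adjusted p of 0.106 for 24 h against untreated, and ATP6V1A, the catalytic subunit, averaged 1353 ± 19.2 untreated, 1554 ± 286 at 4 h and 1882 ± 94.2 at 24 h, with adjusted p = 0.149. The 2 subunits with the smallest p at 4 h were ATP6V1D (0.22 ± 0.13, adjusted p = 0.543) and ATP6V0A2 (0.25 ± 0.15, adjusted p = 0.547).

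Of 14 cathepsins, the lysosomal proteases mostly of the cysteine and aspartic classes, 10 lay below 0 at 24 h (median -0.12). At an unadjusted p under 0.05, 0 were higher and 2 lower (14.3%), beside 8.17% and 7.62% of all genes. At 4 h, 1 was higher (7.14%) and 2 lower (14.3%), beside 6.93% and 5.43% of all genes. CTSB, cathepsin B, averaged 2089 ± 28.2 untreated, 1383 ± 249 at 4 h and 1302 ± 90.3 at 24 h (its adjusted p was 0.074 for the later and 0.148 for the earlier time), CTSF measured -0.52 ± 0.19 at 24 h (adjusted p = 0.23) and CTSE 0.40 ± 0.17 at 4 h (adjusted p = 0.374). Among 39 further lysosomal enzymes and membrane proteins, 20 lay above 0 at 24 h (median 0.03), with 5 higher (12.8%) and 6 lower (15.4%) at that p. At 4 h 3 were higher (7.69%) and 4 lower (10.3%). Genes above the 40th percentile of level gave 10.9% and 10.7% at 24 h, and 8.83% and 7.1% at 4 h. MFSD8, a lysosomal membrane transporter, averaged 60.7 ± 9.96 untreated, 67.7 ± 12.4 at 4 h and 92.9 ± 12.4 at 24 h, with an adjusted p of 0.154 for the later time. LIPA, lysosomal acid lipase, averaged 445 ± 38.8 untreated, 465 ± 40.2 at 4 h and 596 ± 55.2 at 24 h, with an adjusted p of 0.159 for the later time. At 4 h the smallest p values were those of EPDR1 (-0.39 ± 0.10, adjusted p = 0.174) and NPC2, which hands cholesterol out of the lysosome (-0.36 ± 0.11, adjusted p = 0.218).

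The MiT/TFE factors and the proteins that control their location had 9 of 18 measured genes above 0 at 24 h. At an unadjusted p under 0.05, 1 was higher (5.56%) and 3 lower (16.7%), with the same counts at 4 h. Over all genes, the shares were 8.17% and 7.62% at 24 h, and 6.93% and 5.43% at 4 h. TFEB itself averaged 35.5 ± 4.59 untreated, 17.5 ± 1.97 at 4 h and 25.3 ± 1.17 at 24 h, near the offset, with -0.62 ± 0.11 at 4 h (adjusted p = 0.0717). RRAGC, a Rag GTPase that recruits TFEB and mTORC1 to the lysosome, averaged 831 ± 24 untreated, 1049 ± 165 at 4 h and 1518 ± 216 at 24 h, with an adjusted p of 0.0502 for the later time, FNIP2 measured 0.45 ± 0.16 at 4 h (adjusted p = 0.315) and LAMTOR4 -0.42 ± 0.11 at 24 h (adjusted p = 0.121). In the tagging and sorting machinery, 11 of 21 genes lay above 0 at 24 h, with 3 higher (14.3%) and 2 lower (9.52%) at that p. At 4 h 0 were higher and 3 lower (14.3%). GNPTG, a subunit of the tagging enzyme, measured -0.58 ± 0.15 at 24 h (adjusted p = 0.107) and VPS35, of the retromer, 0.53 ± 0.17 (adjusted p = 0.164). At 4 h AP3S1, of an adaptor complex, measured -0.35 ± 0.14 (adjusted p = 0.349) and CLTB, a clathrin light chain, -0.40 ± 0.16 (adjusted p = 0.36).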

How the data were processed

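Each probe set has 1 deposited linear intensity per array, from one-colour Affymetrix arrays hybridised with cRNA made from 6 µg of total RNA, per the labels' protocols. All 9 arrays have a mean of 100 once 2% is trimmed from both ends, and array medians ran from 14.2 to 18.2. R 2.9.2 and RMA appear in the submitters' processing notes with no role stated, although the values are not on a log scale. The sources used here give neither the summarisation software nor detection calls. Precision is limited by the number of arrays. The fold changes and log2 changes were computed here from the deposited intensities as log2(intensity + 16), an offset that understates changes of dim genes.

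Probe sets were named by the platform annotation, with symbols updated by Entrez ID to RefSeq. Without 62 control probe sets, 41091 named 1 gene, 1801 several and 11721 none, and each of 19775 genes was represented by its brightest probe set. A model with 1 mean per group over the 9 arrays was fitted to all genes by lmFit and eBayes of limma 3.58.1 (R 4.3.3), two-sided, with Benjamini-Hochberg adjustment and a threshold of 0.05, and was tested on simulated data. Sample titles gave the groups and the replicate numbers. The array names no genome build, so no coordinates of probe sets are given, and those of promoter windows are RefSeq's on GRCh38.p14. Members with an unadjusted p under 0.05 in any comparison are given on each array, the other members as means, and of each further list the 2 genes with the smallest p in each comparison with untreated. The members, lists and tests were chosen with earlier results of these data known. Alternatives were other offsets (1 and 64), quantile normalization, median centring, the mean over probe sets, a filter at the 40th percentile, the compared groups alone, a replicate block, all probe sets tested together, a mean-variance trend and leaving out each array. Leaving out arrays and other offsets in the fit over all probe sets, for the SGSH probe set, the mean over probe sets for members with and without CACGTG, and the calls of the further lists under each alternative were added after seeing the data.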

Additional observations from a re-analysis of the deposited data

How the results depend on the processing

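Of the member changes under the alternatives, 1922 kept their direction and their side of the adjusted threshold or changed sign without any test behind it, 15 newly passed the threshold and 1 reversed. As 0 members passed in the main fit, no call could be lost, and the size of a change did not enter this count. HEXA at 4 h, for example, measured -0.38 in the main fit and from -0.45 to -0.038 under the alternatives other than leaving out an array. The reversal was LAMP1 at 24 h against untreated, at -0.46 with the mean over probe sets. At 24 h against untreated, the number of members called higher was 4 with an offset of 64 (GLA, LGMN, NEU1 and PPT1), 3 with a mean-variance trend (GLA, NEU1 and PPT1), and 1 with the filter or with the compared groups only (GLA both times), and 1 was called lower with the mean over probe sets (SGSH, -0.77). That SGSH mean includes the dim probe set 204293_at described above (-1.19), beside -0.34 on the brighter one. Against 4 h, 2 were called higher with an offset of 64 (TPP1 and NEU1) and 1 with the trend (NEU1). At an unadjusted p under 0.05, the 4 h counts became 1 higher and 10 lower with an offset of 64 or with the trend, and 11 lower with median centring. For 24 h against 4 h, they became 2 lower with an offset of 64, 6 higher and 3 lower with the mean over probe sets, and 1 lower with the filter or the trend. The 4 h median was -0.0698 with the mean over probe sets. Leaving out 1 array gave 0 to 1 higher and 3 to 9 lower members at 4 h (median -0.20 to -0.13), 4 to 6 higher and 3 to 8 lower at 24 h against untreated (median -0.19 to -0.09, 0 to 1 called higher), and 5 to 10 higher and 0 to 2 lower at 24 h against 4 h (median 0.09 to 0.20). Deviations of same-numbered arrays correlated at -0.113, 0.0807 and -0.105 for 4 h and untreated, beside -0.0773 to 0.167 for differently numbered ones. For 24 h and untreated they gave 0.0405, 0.053 and 0.00428, beside -0.0684 to 0.0229. For 24 h and 4 h they gave 0.0445, 0.0534 and 0.0922, all above the -0.0616 to 0.0108 of differently numbered arrays. Whether same-numbered arrays share a batch was not tested. With the replicate number as a block, 0 higher and 6 lower were counted at 4 h, 5 and 6 at 24 h against untreated, and 9 and 0 against 4 h, with the same medians. Median centring shifted the all-gene median to -0.06 at 4 h and -0.05 at 24 h. The cause of these shifts was not tested. Values near the offset carry no detection call, which limits what dim probe sets can show. Over all genes and alternatives, adjusted calls ran from 2 (compared groups only) to 184 (offset 64) higher and 0 to 89 lower at 4 h, from 0 to 423 (trend) higher and 0 to 406 (offset 64) lower at 24 h against untreated, and from 0 to 105 higher and 1 to 146 lower against 4 h. In the 5 further lists, up to 3 genes passed at 4 h and up to 2 at 24 h against 4 h.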

Other observations

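The annotation lists 2 probe sets that name a member together with another gene, and these enter no comparison. The probe set shared by GLB1, which encodes beta-galactosidase, and TMPPE measured 460.1 ± 20.3 (SD, n = 3) in untreated cells, 369 ± 41.3 in the 4 h group and 399 ± 28.4 in the 24 h group. The probe set shared by M6PR and PHC1 measured 1344 ± 53.5, 1192 ± 71.5 and 1275 ± 88.5 in that order.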
